A study of Homo sapiens with 24 samples.

Results

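The data describe what happened to the transcriptome of Sem cells when ibrutinib was added to asparaginase. Sem is an established line of B cell precursor acute lymphoblastic leukaemia that carries a KMT2A rearrangement. The comparison set 3 libraries of cells given both drugs against 3 libraries of cells given asparaginase alone, that is 6 of the 24 bulk RNA-seq libraries of the study, chosen by their labelled line and treatment. In the combination group, Sem cells received 10 µM ibrutinib and asparaginase for 24 h, and in the asparaginase group they received asparaginase alone for 24 h. The labels give the asparaginase dose as 1 IU/ml among the sample characteristics and as 0.5 IU/ml in the treatment protocol, so the dose is not settled. A further 6 Sem libraries, 3 of cells given 10 µM ibrutinib alone for 24 h and 3 of untreated cells, give the change with ibrutinib without asparaginase. No harvest time is given for the untreated cells, so culture time and drug cannot be told apart in comparisons that use them. The remaining 12 libraries hold the same 4 treatments of Nalm6, another B cell precursor leukaemia line without that rearrangement. The labels do not say whether the 3 libraries of a group came from separate cultures, so each p-value rests on the variation among 3 libraries, part of which may be technical.

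Ibrutinib binds covalently to BTK, a kinase that relays signals from the B cell receptor and its precursor form to phospholipase C, ERK and NF-kappaB, and it also binds other TEC, SRC and ERBB family kinases. Asparaginase breaks down extracellular asparagine and, more slowly, glutamine. Cells that run short of these amino acids activate the kinase GCN2, which raises translation of the transcription factor ATF4 and with it genes for amino acid synthesis, uptake and tRNA charging. In B cell precursors the surrogate light chain, made from IGLL1 and VPREB1, pairs with the immunoglobulin heavy chain to form the precursor receptor, and FOXO factors raise genes of quiescence when signals through PI3 kinase and AKT fall.

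Levels are given as FPKM, fragments per kilobase of transcript scaled to library size, after a decimal point missing from deposited values of 1 or more had been restored from whole read counts. Changes are log2(FPKM + 1) in combination libraries minus that in asparaginase libraries, which understates the change of genes near or below 1 FPKM. Means are given ± SD over 3 libraries and changes ± standard error. A gene is said to have risen or fallen where limma gave an adjusted p under 0.05 by the Benjamini-Hochberg method over all genes tested. The 6 libraries held 15032809 to 17673947 recovered reads and 12506 to 12850 genes at 1 FPKM or more, and log2 values correlated at 0.9846 to 0.9871 between libraries of a group and at 0.9687 to 0.9715 between groups. The log2 values moved with GC content in the combination libraries by -0.0282 to -0.0145 per 10 percentage points and in the asparaginase libraries by 0.0093 to 0.0346, and 5319 genes passed after removal of that trend and of the trend on length, against 5140 without it. B cell precursor markers were present, with CD79A at 114 FPKM with both drugs and 111 FPKM with asparaginase on average and PAX5 at 129 FPKM with both drugs and 135 FPKM with asparaginase. DNTT averaged 0.237 FPKM with both drugs and 0.0982 FPKM with asparaginase and RAG1 0.103 FPKM with both drugs and 0.0374 FPKM with asparaginase, so both of these were nearly absent. Of 15 myeloid markers 7 were listed at 0 in all 6 libraries and the summed level was 1.90 to 2.65 FPKM in combination libraries and 3.76 to 4.05 FPKM in asparaginase libraries. Of 16 T and NK cell markers 11 were at 0, with sums of 97.3 to 100.2 FPKM in combination libraries and 103.1 to 105.4 FPKM in asparaginase libraries that were mostly TRAC. NKG7 was the tested member that fell (-0.41), a call lost without combination replicate 1 (adjusted p = 0.0506). In bulk RNA, a smaller number of cells of a kind and less RNA per cell cannot be told apart.

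Adding ibrutinib to asparaginase changed the level of 5140 of 13417 tested genes, 38.3%. Of these, 2490 rose (18.6% of the genes tested) and 2650 fell (19.8%), and 6218 genes (46.3%) had an unadjusted p under 0.05. Most changes were small: the median size among the genes that passed was 0.31 on the log2 scale, and 4101 of the 5140 changed by less than 0.5. In all, 47 genes (0.35%) rose by 1 or more and 97 (0.723%) fell by 1 or more, and the extremes were 2.21 and -3.53. The 3 combination libraries lay wholly above or wholly below the 3 asparaginase libraries in 6892 genes (51.4%). Among 444 tested lincRNA genes 93 rose and 27 fell, and among 144 transcribed unprocessed pseudogenes 41 rose and 4 fell, whereas 2127 of 10340 protein-coding genes rose and 2493 fell. The strand setting of the counting is not given in the sources used here, so reads of overlapping and antisense genes cannot be assigned with certainty, nor those of near-identical copies such as histone, HLA and ribosomal protein genes.

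**Figure D1:**
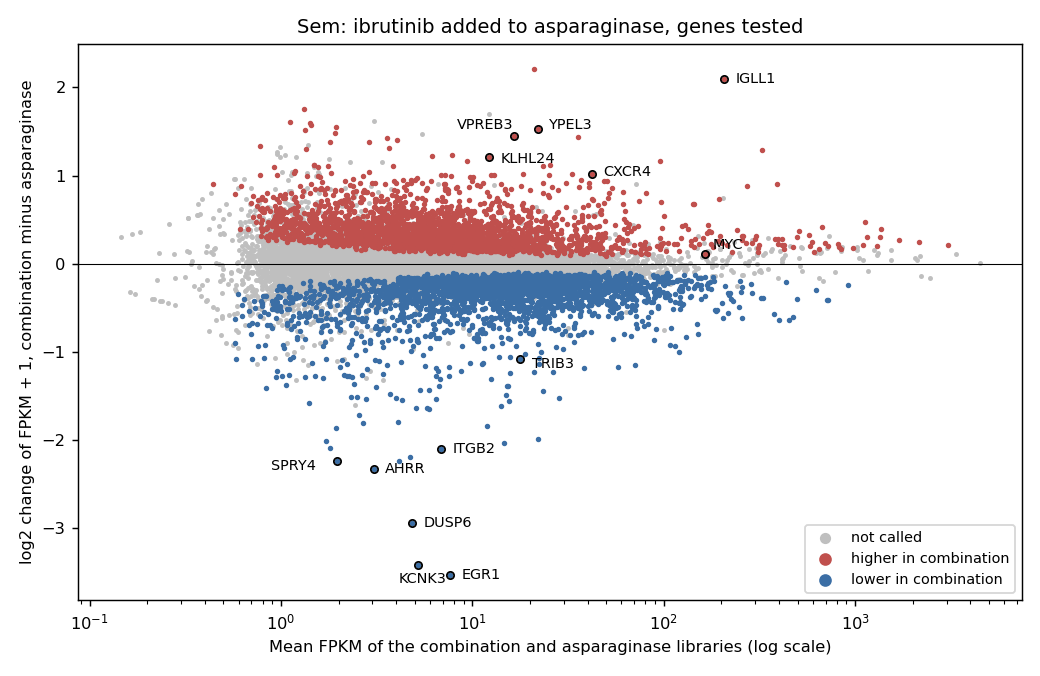
Each point is 1 of 13417 genes tested in Sem cells, with its mean FPKM over the 6 libraries on a log x axis and its log2(FPKM + 1) change, combination minus asparaginase, on the y axis; coloured points have an adjusted p under 0.05. The named genes run from EGR1 at -3.53 to IGLL1 at 2.10, with MYC near 0 at 0.11, and the largest rise, 2.21, belongs to a gene not named. Most coloured points lie within 0.5 of 0.

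Genes that ERK signalling induces and that feed back on it fell, and 5 of them were among the 15 deepest falls. Of 18 tested members of a list of ERK feedback and immediate early genes, 15 fell and none rose, with a median change of -0.81, against 0.0093 over all tested genes; 8 further members were too low to test. EGR1, an immediate early zinc finger factor (chr5:138465490-138469315, plus strand, GRCh38), was at 0.411, 0.153 and 0.433 FPKM in combination libraries and at 21.5, 12.5 and 10.8 FPKM in asparaginase libraries, a change of -3.53 ± 0.23 (adjusted p = 8.53e-07). The asparaginase libraries themselves differed, with 1 well above the other two, but the groups were far apart. DUSP6, the phosphatase that switches ERK off, was at 0.468, 0.272 and 0.294 FPKM with the combination and at 8.90, 9.50 and 9.43 FPKM with asparaginase alone (-2.94 ± 0.09, adjusted p = 4.42e-09). SPRY4, a Sprouty inhibitor of receptor tyrosine kinase signalling, was at 0.00893, 0.0732 and 0.0296 FPKM with the combination and at 4.11, 3.88 and 3.71 FPKM with asparaginase, so it was nearly undetected in all 3 combination libraries. ETV5, an ETS factor that ERK induces, averaged 0.660 ± 0.0512 FPKM with the combination and 4.46 ± 0.117 FPKM with asparaginase (-1.72). SPRED2, which restrains RAF activation, averaged 1.95 ± 0.269 FPKM with both drugs and 8.16 ± 0.0668 FPKM with asparaginase (-1.64). The AP-1 subunits moved less: FOSL2 fell by 0.69, FOS by 0.68, JUN by 0.65 and JUNB by 0.80 on the log2 scale. JUND, DUSP2 and SPRY1 did not pass, with changes of -0.02, -0.35 and 0.14. With a minimum of 5 FPKM, 11 members remained to be tested and 9 fell.

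In the promoter windows searched, EGR1 was the only tested member of the list with a CArG box. Serum response factor and its ERK-driven partners are known to act through this element, and the EGR1 promoter is shown for that reason. Elements outside these windows were not searched for. The window runs from 250 bases before to 50 bases after the start (RefSeq, GRCh38.p14, chr5:138465229-138465528, plus strand), with 2 CArG boxes in capitals.
EGR1: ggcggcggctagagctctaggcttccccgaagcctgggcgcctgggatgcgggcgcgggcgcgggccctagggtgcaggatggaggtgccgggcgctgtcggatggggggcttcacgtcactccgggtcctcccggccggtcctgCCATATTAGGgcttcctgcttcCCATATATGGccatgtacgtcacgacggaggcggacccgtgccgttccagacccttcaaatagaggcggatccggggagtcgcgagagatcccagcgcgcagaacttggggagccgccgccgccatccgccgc
The boxes begin 105 and 83 bases before the start. A CArG box on either strand was found in 1.29% of all 35116 promoter windows of this length and in at least 1 window of 1.6% of genes, and EGR1 was the 1 gene with it among 15 tested genes of the list that had a window.

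**Figure D2:**
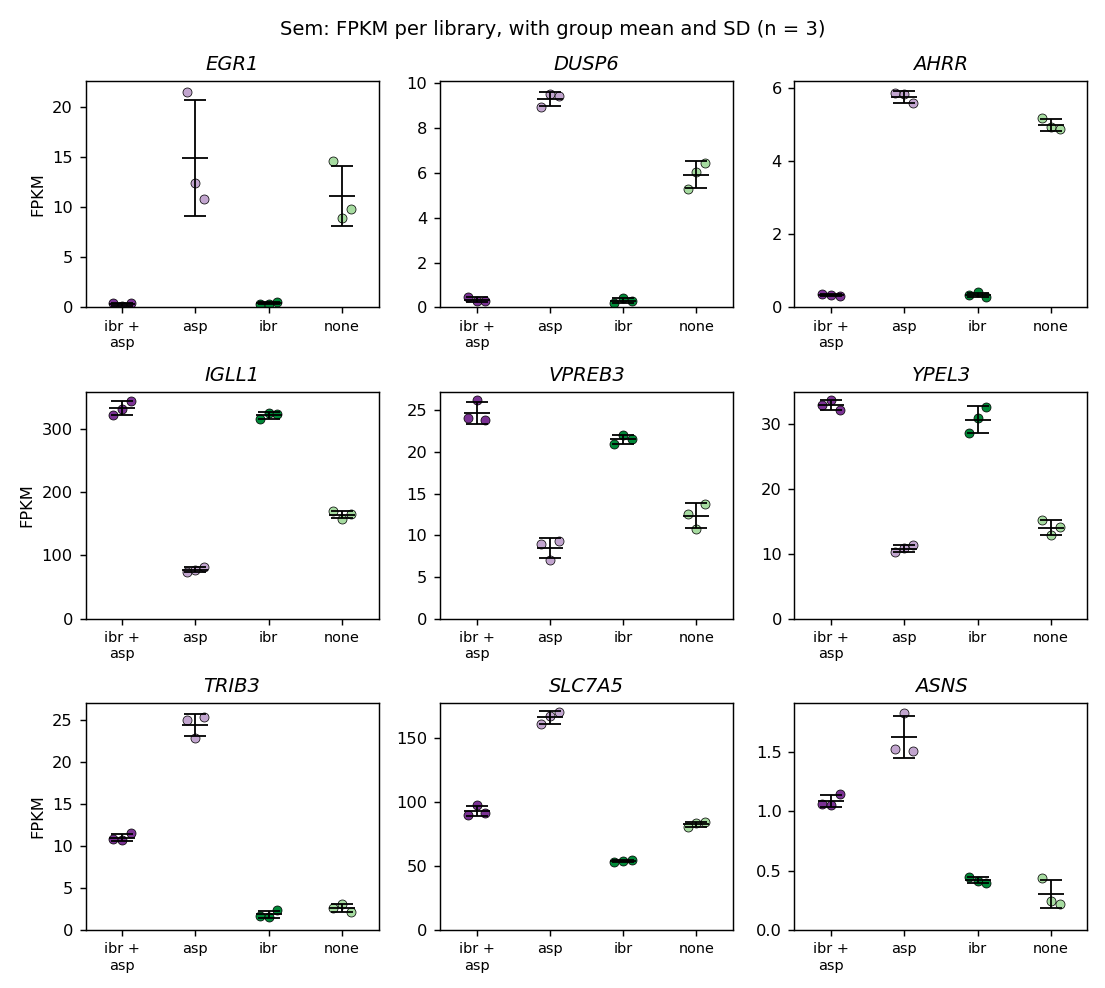
Restored FPKM of 9 genes in each Sem library, with ibrutinib plus asparaginase left of asparaginase alone, and ibrutinib alone left of untreated cells; points are libraries and bars the mean and SD of 3. EGR1, DUSP6 and AHRR lie near 0 in both groups that received ibrutinib, IGLL1 is lowest with asparaginase alone at 73.4 to 81.4 FPKM, and TRIB3 is high in both groups that received asparaginase.

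Several genes outside that list fell as far. By a rule that took the 15 deepest falls among well measured protein-coding genes, the others were KCNK3, AHRR, TRPM2, ITGB2, MCEMP1, RGS16, EMP1, ANPEP, TNF and PRKD2; the rule required groups that do not overlap, so their separation is no further evidence. KCNK3, a background potassium channel, was at 0.0565, 0.0386 and 0.0729 FPKM with the combination and at 9.85, 10.1 and 10.9 FPKM with asparaginase (-3.42 ± 0.06, adjusted p = 9.77e-11). AHRR, which represses the aryl hydrocarbon receptor, was at 0.366, 0.352 and 0.321 FPKM with the combination and at 5.85, 5.83 and 5.58 FPKM with asparaginase (-2.33 ± 0.06, adjusted p = 1.82e-09). Both were tight within each group and close to silent in all 3 combination libraries. ITGB2, the common chain of leukocyte integrins, averaged 1.97 ± 0.169 FPKM with both drugs and 11.7 ± 0.425 FPKM with asparaginase (-2.10). ANPEP, the aminopeptidase CD13, averaged 8.25 ± 0.206 FPKM with both drugs and 35.7 ± 0.851 FPKM with asparaginase (-1.99), and the mast cell membrane protein gene MCEMP1 averaged 0.0625 ± 0.0631 FPKM with both drugs and 3.54 ± 0.407 FPKM with asparaginase (-2.09). CSF1R, a myeloid receptor, fell too (1.68 FPKM with both drugs and 2.86 FPKM with asparaginase, -0.52). LYZ, the other myeloid marker that could be tested, did not pass (-0.18), and the part of other cells in these falls was not tested. The cytokine gene TNF fell by 1.87 from a low level (0.253 FPKM with both drugs and 3.60 FPKM with asparaginase). The G protein regulator RGS16 fell by 2.04 (5.12 FPKM with both drugs and 24.1 FPKM with asparaginase) and the calcium-permeable channel TRPM2 by 2.19 (1.05 FPKM with both drugs and 8.38 FPKM with asparaginase). The membrane protein EMP1 fell by 2.01 and the protein kinase D family member PRKD2 by 1.64.

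Genes of the surrogate light chain rose, while genes of precursor receptor signalling moved in both directions. IGLL1, the lambda-like chain of the surrogate light chain (chr22:23573125-23580308, minus strand), was at 322, 332 and 345 FPKM with the combination and at 73.4, 76.9 and 81.4 FPKM with asparaginase, a change of 2.10 ± 0.04 (adjusted p = 1.97e-10). Its partner VPREB1 was at 59.9, 71.6 and 66.7 FPKM with the combination and at 36.9, 38.0 and 37.2 FPKM with asparaginase (0.80, adjusted p = 5.19e-06). VPREB3, which binds free light chains during receptor assembly, was at 24.1, 26.2 and 23.8 FPKM with the combination and at 8.92, 7.06 and 9.33 FPKM with asparaginase (1.45 ± 0.10, adjusted p = 1.1e-06). All 3 genes thus rose. The other 3 members of the list, RAG1, RAG2 and DNTT, were too low to test. IGLL1, VPREB1 and VPREB3 lie in or near the immunoglobulin lambda locus, where reads may be shared. Of 19 tested members of a receptor signalling list 10 rose and 6 fell, with a median of 0.15. CD79B, a signalling chain of the receptor, averaged 9.70 FPKM with the combination and 4.76 FPKM with asparaginase, and CD79A did not pass (0.04). FCRLA, an intracellular Fc receptor-like protein of B cells, rose by 0.99 ± 0.07 and the phosphatidylinositol kinase subunit PIK3CD by 0.38. The phosphatase PTPN6 fell by 0.51, PLCG2 by 0.32 and CD72 by 0.27. LYN (-0.15) and CD22 (-0.12) passed narrowly. The adjusted p of LYN was 0.0809, 0.0822 and 0.056 without combination replicates 1, 2 and 3 and 0.117 without asparaginase replicate 3, and that of CD22 was 0.0563, 0.118 and 0.117 without combination replicates 1, 2 and 3 and 0.0848 and 0.16 without asparaginase replicates 1 and 2.

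BTK itself did not pass: it was at 36.1, 35.2 and 36.2 FPKM with the combination and at 37.1, 36.2 and 37.2 FPKM with asparaginase (-0.04 ± 0.04, adjusted p = 0.439). Of 6 tested genes for kinases that ibrutinib is known to bind, 4 rose and 1 fell. TEC averaged 9.77 ± 0.207 FPKM with both drugs and 5.22 ± 0.673 FPKM with asparaginase (0.80), ERBB2 rose by 0.50 and TXK by 0.62, while JAK3 fell by 0.29. Of 22 tested B lineage transcription factors 14 rose and 2 fell (median 0.22). SOX4 averaged 49.0 ± 0.949 FPKM with both drugs and 25.0 ± 1.05 FPKM with asparaginase (0.95). TCF3 averaged 178 ± 5.16 FPKM with both drugs and 111 ± 0.472 FPKM with asparaginase (0.67), and IRF4 averaged 18.8 ± 1.27 FPKM with both drugs and 11.5 ± 0.329 FPKM with asparaginase (0.66). EBF1 rose by 0.42, while BCL11A fell by 0.26 and KLF2 by 0.53. Of 10 tested NF-kappaB targets 6 rose, among them the feedback inhibitors TNFAIP3 (0.77) and NFKBIA (0.49), and ICAM1 fell by 0.71.

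Genes of FOXO activity and quiescence mostly rose. Of 18 tested, 13 rose and 2 fell, with a median of 0.41; with a minimum of 5 FPKM, 11 were tested and 8 rose. YPEL3, a growth-restraining gene, was at 33.0, 33.7 and 32.2 FPKM with the combination and at 10.3, 10.8 and 11.3 FPKM with asparaginase (1.53 ± 0.06, adjusted p = 3.5e-08). KLHL24, an adaptor of a ubiquitin ligase, averaged 17.4 ± 0.419 FPKM with both drugs and 6.996 ± 0.498 FPKM with asparaginase (1.21). The cyclin G gene CCNG2 averaged 14.5 ± 0.352 FPKM with both drugs and 7.44 ± 0.394 FPKM with asparaginase (0.88), and SESN3, which restrains mTORC1, averaged 3.16 ± 0.115 FPKM with both drugs and 1.17 ± 0.0801 FPKM with asparaginase (0.94). The members that went the other way were TXNIP, which restrains glucose uptake (-0.91), and KLF2. The remaining genes among the 15 largest rises of the rule were mixed in function. They were the small membrane protein gene SMIM14 (1.40), the histone gene HIST1H2AC (1.38), the alpha-arrestin ARRDC3 (1.23), the metalloproteinase MMP11 (1.16) and the hormone gene SCT (1.12). The small heat shock protein gene HSPB7 (1.11), DEPP1 (1.104), the p53-induced gene TP53INP1 (1.099) and the polarity gene CRB2 (1.03) belonged to them too. The surface antigen CD24 averaged 5.63 ± 0.365 FPKM with both drugs and 1.67 ± 0.373 FPKM with asparaginase (1.32). The chemokine receptor CXCR4 averaged 56.6 ± 0.139 FPKM with both drugs and 27.6 ± 2.64 FPKM with asparaginase (1.02).

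Genes of cell growth fell broadly although MYC messenger RNA did not. MYC was at 170, 171 and 168 FPKM with the combination and at 159, 157 and 156 FPKM with asparaginase, a rise of 0.11 ± 0.03 (adjusted p = 0.0069) that did not pass in a fit of all 24 libraries (adjusted p = 0.335). Of 33 tested genes in a list of MYC and genes it induces, 30 fell and 2 rose, with a median of -0.52; the risers were MYC and IMPDH2 (0.19), and IMPDH2 is an enzyme of guanine nucleotide synthesis. The ribosome assembly factor MRTO4 was at 28.6, 27.6 and 27.6 FPKM with the combination and at 46.6, 48.5 and 50.2 FPKM with asparaginase (-0.77, adjusted p = 5.61e-08). The nucleolar proteins NOP56 (-0.55) and RRS1 (-0.73) and the glycolytic enzyme ENO1 (-0.61; 160 ± 1.74 FPKM with both drugs and 246 ± 6.26 FPKM with asparaginase) fell with it. IMPDH2 lost its call without combination replicate 1 (adjusted p = 0.0517), combination replicate 3 (0.0564) or asparaginase replicate 2 (0.065). Of 25 genes of ribosome biogenesis and RNA polymerase I, 21 fell, among them RRP12 (-0.80) and the polymerase subunit POLR1A (-0.61), and POLR1D rose by 0.34. DDX21 fell by 0.72, but its restored level had a posterior of 0.683 in at least 1 Sem library. Of 18 tested genes of purine and pyrimidine synthesis 16 fell and none rose (median -0.30), for example PFAS (-0.62) and GART (-0.46).

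The promoter of MRTO4 is shown because its list is defined by induction by MYC, which binds CACGTG. The window (RefSeq, GRCh38.p14, chr1:19251555-19251854, plus strand) holds that motif, in capitals, within the 50 bases after the start.
MRTO4: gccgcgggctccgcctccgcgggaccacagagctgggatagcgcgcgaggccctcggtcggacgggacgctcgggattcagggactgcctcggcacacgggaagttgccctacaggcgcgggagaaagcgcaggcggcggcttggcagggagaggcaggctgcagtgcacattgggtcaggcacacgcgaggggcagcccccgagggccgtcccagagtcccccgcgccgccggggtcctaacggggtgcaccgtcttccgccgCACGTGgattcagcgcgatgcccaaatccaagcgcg
CACGTG, which reads the same on both strands, was found in 7.26% of the 35116 windows and in at least 1 window of 8.77% of genes. Of the 27 tested genes of the MYC list with a window, 15 held it in at least 1 window, and 15 of those fell; 12 did not hold it, and 11 of those fell. Of 21 such genes of ribosome biogenesis 8 held it, all of which fell, and 13 did not, of which 10 fell.

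Genes of DNA replication fell as well, with 26 of 37 lower and 3 higher (median -0.24). MCM3, a subunit of the replicative helicase, averaged 101.5 ± 2.82 FPKM with both drugs and 138 ± 2.41 FPKM with asparaginase (-0.44), and the ribonucleotide reductase subunit RRM2 34.9 ± 1.28 FPKM with both drugs and 48.7 ± 1.82 FPKM with asparaginase (-0.47). Going against these, the clamp loader subunit RFC5 rose by 0.69, the licensing factor CDT1 by 0.37 and the primase subunit PRIM1 by 0.25. Mitotic genes moved less: 12 of 30 fell and 3 rose, with CDC20 at 44.4 ± 0.354 FPKM with both drugs and 68.3 ± 0.905 FPKM with asparaginase (-0.61), PTTG1 at -0.42 and CCNB1 at -0.38. Of 17 tested G1 cyclins, kinases and inhibitors 8 fell, 5 of them without combination replicate 1, including CDC25A (-0.45) and CDK4 (-0.39), while the inhibitor CDKN2C rose by 0.38.

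**Figure D3:**
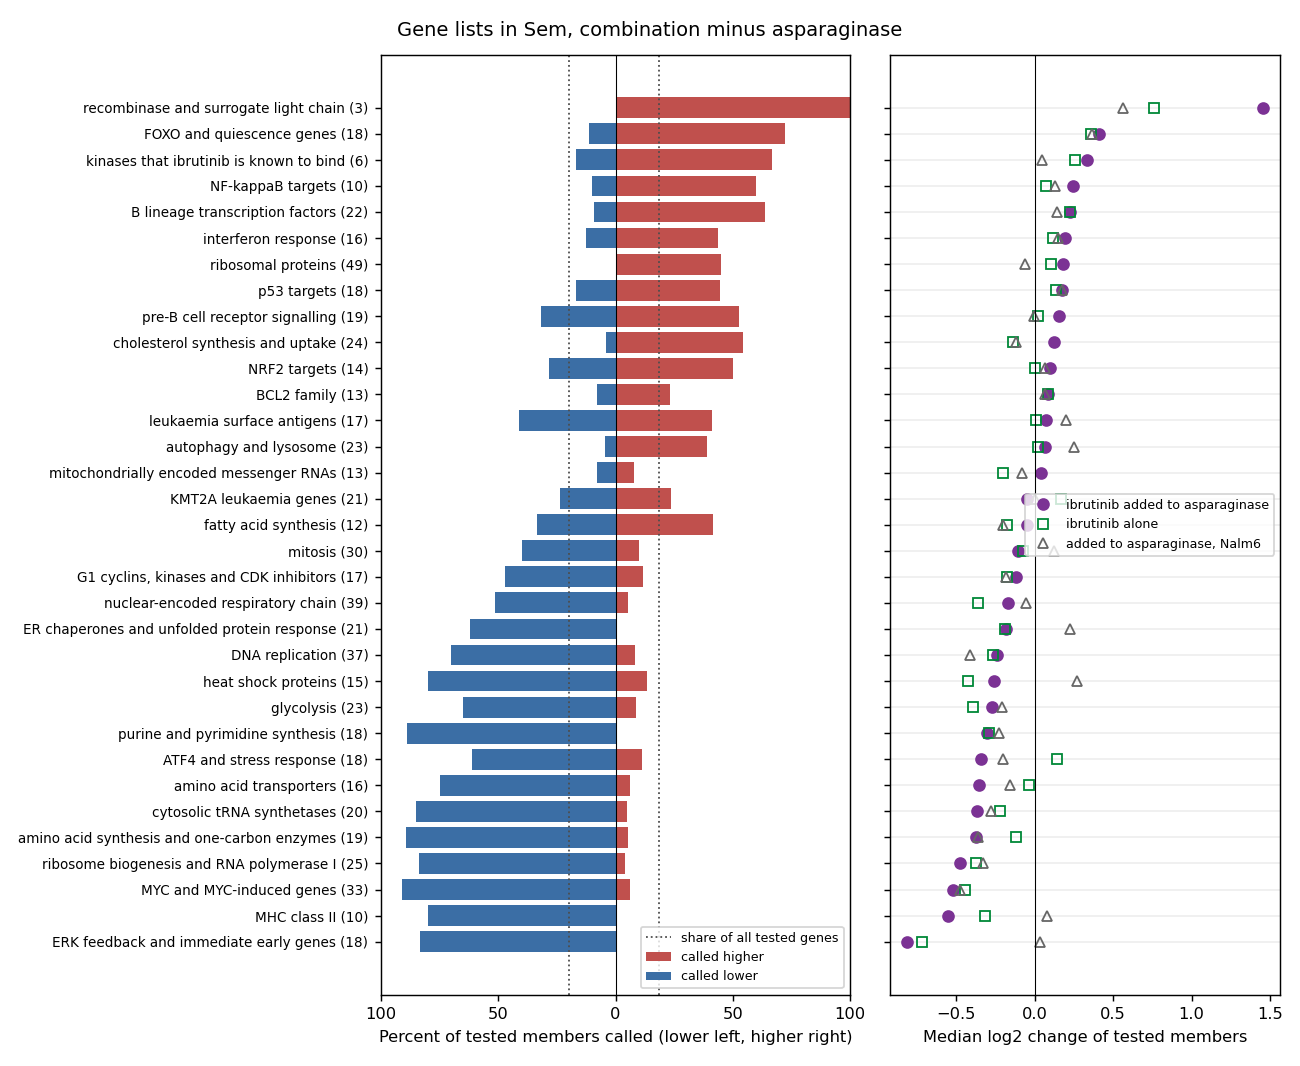
Left, the percent of tested members of each of 33 gene lists that rose or fell on adding ibrutinib to asparaginase in Sem cells, with dotted lines at the share among all tested genes, 18.6% and 19.8%; right, the median log2 change of each list for that addition, for ibrutinib alone in Sem and for the addition in Nalm6. The ERK list lies lowest in Sem at -0.81 and near 0 in Nalm6, while the MYC list is near -0.5 in all 3 comparisons.

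Transcripts of the amino acid response mostly fell where ibrutinib joined asparaginase, and members of each of the lists below also fell with ibrutinib alone. Of 18 tested ATF4 and stress response genes 11 fell and 2 rose (median -0.34), of 19 genes for amino acid synthesis and one-carbon metabolism 17 fell and 1 rose (-0.38). Of 16 amino acid transporters 12 fell and 1 rose (-0.35), and of 20 cytosolic tRNA synthetases 17 fell and 1 rose (-0.37). ATF4 messenger RNA was at 235, 249 and 254 FPKM with the combination and at 268, 254 and 287 FPKM with asparaginase and did not pass (-0.13 ± 0.05, adjusted p = 0.0687), although it did under 6 of the alternatives, with adjusted p from 0.00688 to 0.0328. DDIT3, the stress-induced factor CHOP, did not pass either (-0.12, adjusted p = 0.429). TRIB3, a pseudokinase that ATF4 and CHOP induce, was at 10.8, 10.7 and 11.5 FPKM with the combination and at 25.0, 22.9 and 25.3 FPKM with asparaginase (-1.08 ± 0.11, adjusted p = 2.34e-05). CHAC1, which degrades glutathione, was at 12.04, 15.9 and 14.4 FPKM with the combination and at 23.0, 22.9 and 26.1 FPKM with asparaginase (-0.73 ± 0.11, adjusted p = 0.000354). The groups of both genes lay apart, as they did in 51.4% of all tested genes. The mTORC1 inhibitors DDIT4 (80.0 ± 2.67 FPKM with both drugs and 161 ± 12.5 FPKM with asparaginase, -0.996) and SESN2 (11.5 ± 0.231 FPKM with both drugs and 18.7 ± 0.634 FPKM with asparaginase, -0.66) fell, and VLDLR rose by 0.32 along with KLHL24, which is on this list too.

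ASNS, the enzyme that makes asparagine, was expressed at a low level. It was at 1.07, 1.05 and 1.149 FPKM with the combination and at 1.53, 1.83 and 1.51 FPKM with asparaginase (-0.33 ± 0.11, adjusted p = 0.0313). That call was lost with a pseudocount of 0.1 (adjusted p = 0.13) and when any 1 library was left out: the adjusted p was 0.0776, 0.0834 and 0.0568 without combination replicates 1, 2 and 3, and 0.0559, 0.114 and 0.0548 without asparaginase replicates 1, 2 and 3. The promoters of ASNS and CHAC1 are shown because both carry TGATGNAA, the composite element that ATF4 binds with a C/EBP partner (RefSeq, GRCh38.p14; chr7:97872359-97872658, minus strand, and chr15:40953221-40953520, plus strand), with the match in capitals.
ASNS: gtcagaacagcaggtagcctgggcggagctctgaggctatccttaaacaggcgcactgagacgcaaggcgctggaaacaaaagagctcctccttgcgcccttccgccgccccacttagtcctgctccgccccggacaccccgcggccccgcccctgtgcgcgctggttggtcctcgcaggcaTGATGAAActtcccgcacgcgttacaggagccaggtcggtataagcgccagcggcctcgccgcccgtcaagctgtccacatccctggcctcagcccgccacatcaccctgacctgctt
CHAC1: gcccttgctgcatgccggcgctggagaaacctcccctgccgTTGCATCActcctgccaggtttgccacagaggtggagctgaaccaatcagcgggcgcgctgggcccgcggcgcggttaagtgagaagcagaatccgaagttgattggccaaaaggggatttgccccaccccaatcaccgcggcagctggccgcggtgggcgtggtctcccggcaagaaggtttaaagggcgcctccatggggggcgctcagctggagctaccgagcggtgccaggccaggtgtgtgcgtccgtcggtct
In ASNS the match TGATGAAA lies 68 to 61 bases before the start of 1 of its 2 windows, and in CHAC1 the match reads TTGCATCA, on the opposite strand, 209 to 202 bases before the start. TGATGNAA on either strand was found in 3.62% of the 35116 windows and in at least 1 window of 4.46% of genes. On the ATF4 list 5 of 17 tested genes with a window held it, of which 4 fell, and 12 did not, of which 6 fell; among the amino acid transporters 5 of 14 held it, all of which fell, and 9 did not, of which 6 fell. Among amino acid synthesis and one-carbon enzymes 4 of 13 held it, of which 3 fell, and 9 did not, of which 8 fell.

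Among the enzymes and transporters changes ranged from -0.69 to 0.29 for the synthesis list and from -0.83 to 0.30 for the transporters. PSAT1, of serine synthesis, was at 201, 203 and 205 FPKM with the combination and at 313, 296 and 326 FPKM with asparaginase (-0.62). The mitochondrial one-carbon enzyme MTHFD1L fell by 0.64, MTHFD1 by 0.59 and GOT1, which makes aspartate, by 0.69, while GLUL, glutamine synthetase, rose by 0.29. SLC7A5, the large neutral amino acid transporter, was at 90.3, 97.6 and 91.4 FPKM with the combination and at 161, 168 and 171 FPKM with asparaginase (-0.83), and its partner SLC3A2 fell by 0.60 and the glutamine transporter SLC1A5 by 0.68. SLC38A9, the lysosomal arginine sensor, rose by 0.30. Among tRNA synthetases VARS averaged 18.4 ± 0.531 FPKM with both drugs and 36.5 ± 1.78 FPKM with asparaginase (-0.95) and WARS 30.4 ± 0.0997 FPKM with both drugs and 52.8 ± 0.697 FPKM with asparaginase (-0.78), and QARS, for glutamine, rose (0.34).

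Metabolic lists differed from each other. Cholesterol synthesis and uptake genes rose more often than they fell, 13 against 1 of 24 (2 lower without asparaginase replicate 2), by small amounts (median 0.12). INSIG1, which restrains the sterol sensor, averaged 75.2 ± 2.03 FPKM with both drugs and 49.5 ± 2.32 FPKM with asparaginase (0.59). TM7SF2 rose by 0.72, IDI1 by 0.32 and FDFT1 by 0.28. Of 12 tested fatty acid synthesis genes 5 rose and 4 fell; the 5 became 3 without any 1 of combination replicates 2 and 3 and asparaginase replicates 1, 2 and 3, and the 4 became 1 after quantile normalization. ACSS2 rose by 0.49 and ACACA, the first committed enzyme, fell by 0.24. Of 23 glycolysis genes 15 fell and 2 rose (median -0.27), with LDHA at 63.0 ± 1.80 FPKM with both drugs and 102 ± 3.69 FPKM with asparaginase (-0.69) and PKM at -0.40. The risers ALDOC (0.25) and PFKFB4 (0.42) did not hold. The adjusted p of ALDOC was 0.118, 0.07, 0.0886 and 0.107 without combination replicates 2 and 3 and asparaginase replicates 1 and 3, and that of PFKFB4 lay between 0.058 and 0.144 without any 1 of the 6 libraries. Nuclear genes of the respiratory chain fell in 20 of 39, 12 without asparaginase replicate 3 and 11 after quantile normalization, for example ATP5MC1 (-0.79) and CYC1 (-0.42).

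Stress genes of protein folding mostly fell. Of 21 genes for chaperones of the endoplasmic reticulum and the unfolded protein response 13 fell and none rose (median -0.19), 8 of them after quantile normalization. HSPA5 averaged 80.3 ± 0.839 FPKM with both drugs and 99.4 ± 2.99 FPKM with asparaginase (-0.30), XBP1 fell by 0.32 and HYOU1 by 0.40. Of 15 tested heat shock protein genes 12 fell and 2 rose (median -0.26): the mitochondrial chaperone HSPA9 averaged 38.4 ± 1.17 FPKM with both drugs and 70.2 ± 1.1996 FPKM with asparaginase (-0.86) and HSPD1 fell by 0.33, while HSPB1 rose by 0.21 and DNAJB1 by 0.09. DNAJB1 lost its call without combination replicate 1 (adjusted p = 0.0679) or 3 (0.155) or asparaginase replicate 1 (0.123), 2 (0.0517) or 3 (0.0896), which left 1 gene higher. Of 14 tested NRF2 targets 7 rose and 4 fell. NQO1, a quinone reductase, averaged 24.9 ± 1.49 FPKM with both drugs and 11.9 ± 1.17 FPKM with asparaginase (1.01) and the pentose phosphate enzyme TKT 72.6 ± 0.346 FPKM with both drugs and 50.8 ± 0.570 FPKM with asparaginase (0.51). The cystine transporter SLC7A11 (-0.36), GSR (-0.31) and NFE2L2, which encodes NRF2 (-0.50), fell. Of 23 autophagy and lysosome genes 9 rose and 1 fell, with ULK1, the initiating kinase, at 19.5 ± 0.888 FPKM with both drugs and 12.6 ± 1.35 FPKM with asparaginase (0.60), SQSTM1 at 0.39 and the regulator TFEB at -0.47. The count of autophagy genes that fell was 3 without combination replicate 3 and 2 under 6 other alternatives.

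Among genes of survival and cell identity, BCL2, the antiapoptotic target of venetoclax, averaged 43.3 ± 1.42 FPKM with both drugs and 34.6 ± 0.552 FPKM with asparaginase (0.32). BCL2L1 rose by 0.24 and the low, proapoptotic BIK by 0.89, and MCL1 fell by 0.17, a call lost under quantile normalization. Of 13 tested members 9 did not pass. Of 18 tested p53 targets 8 rose and 3 fell, with BTG2 at 15.1 ± 1.38 FPKM with both drugs and 7.54 ± 1.03 FPKM with asparaginase (0.92). MHC class II genes fell in 8 of 10 and rose in none (median -0.55). HLA-DRA averaged 174 ± 4.60 FPKM with both drugs and 258 ± 19.2 FPKM with asparaginase (-0.56). CD74, the invariant chain, averaged 302 ± 5.50 FPKM with both drugs and 450 ± 12.7 FPKM with asparaginase (-0.57), and CIITA, their shared activator, fell by 0.35. Of 16 tested interferon response genes 7 rose, among them IRF7 (0.49), and USP18 fell by 0.88. Genes that KMT2A fusions are known to keep active moved about as often as all tested genes, of which 18.6% rose and 19.8% fell: 5 of 21 were higher and 5 lower (8 lower after GC and length correction). FLT3 averaged 576 ± 15.8 FPKM with both drugs and 446 ± 12.2 FPKM with asparaginase (0.37), and RUNX2 rose by 0.39. CSPG4, the NG2 antigen typical of this leukaemia, averaged 8.10 ± 0.667 FPKM with both drugs and 22.7 ± 0.882 FPKM with asparaginase (-1.38). HOXA9 and MEIS1 did not pass (-0.10 and -0.12). Of 17 tested surface antigens 7 rose, including CXCR4, CD24 and CD38 (0.83), and 7 fell, including CD99 (-0.79) and the laminin receptor chain ITGA6 (0.810 ± 0.0754 FPKM with both drugs and 4.15 ± 0.109 FPKM with asparaginase, -1.51). Ribosomal protein genes rose slightly, 22 of 49 with none lower (median 0.18), for example RPL15 (0.38); the count was 14 without combination replicate 2, 14 without combination replicate 3 and 11 without asparaginase replicate 2, and it was 39 in limma-voom on recovered reads. Of the 13 mitochondrially encoded messenger RNAs MT-ND6 fell (-0.63) and MT-ND1 rose (0.25), and neither call held when some single libraries were left out. The adjusted p of MT-ND6 was 0.0607 without combination replicate 1, and that of MT-ND1 was 0.17, 0.0913, 0.133 and 0.13 without combination replicates 2 and 3 and asparaginase replicates 1 and 3. MZB1, the plasma cell marker that could be tested, averaged 64.6 ± 1.48 FPKM with both drugs and 33.1 ± 0.674 FPKM with asparaginase (0.94), and the other plasma and mature B cell markers together stayed below 0.88 FPKM in every library. VIM averaged 197 ± 1.19 FPKM with both drugs and 154 ± 5.95 FPKM with asparaginase (0.35). PECAM1 rose by 0.70 and PDGFRB fell by 0.62 among stromal markers.

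Much of this was also seen when ibrutinib was given without asparaginase. Ibrutinib alone changed 5573 of the same 13417 genes against untreated Sem cells (41.5%; 2719 higher, 20.3%, and 2854 lower, 21.3%). These libraries are separate from those of the addition. In the same direction in both, 3646 genes passed, which is 70.9% of the calls with asparaginase and 65.4% of those without; 43 passed in opposite directions, and across genes the changes had a Pearson correlation of 0.697 (Spearman 0.70), a description over genes, which are not independent. The median size of change was 0.17 with asparaginase and 0.18 without it. EGR1 averaged 0.431 ± 0.117 FPKM with ibrutinib alone and 11.1 ± 3.03 FPKM in untreated cells (-3.06), KCNK3 changed by -2.83, DUSP6 by -2.42 and AHRR by -2.16. Of the ERK list 16 fell and 1 rose with ibrutinib alone, and of the MYC list 30 fell.

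The test of the difference, the change with asparaginase present minus that with it absent, called 206 genes (1.54%; 102 higher, 0.76%, and 104 lower, 0.775%; 2220 at an unadjusted p under 0.05). The count depended on single libraries: it was 113, 374 and 99 without untreated replicates 1, 2 and 3, 99, 116 and 98 without ibrutinib replicates 1, 2 and 3, 101, 102 and 146 without asparaginase replicates 1, 2 and 3, and 122, 93 and 73 without combination replicates 1, 2 and 3. It depended on scaling as well: TPM scaling gave 438 genes, 15.8% of them higher, against 49.5% of the 206, and quantile normalization 255 genes, 36.9% of them higher. The gene with the largest positive difference among those named, IGLL1, kept its call under every alternative run. IGLL1 averaged 333 ± 11.3 FPKM with both drugs, 77.2 ± 3.98 FPKM with asparaginase, 322 ± 5.24 FPKM with ibrutinib and 165 ± 5.82 FPKM in untreated cells, so ibrutinib changed it by 2.10 with asparaginase and by 0.96 without it (difference 1.13 ± 0.06, adjusted p = 2e-05). VPREB1 averaged 66.0 ± 5.85 FPKM with both drugs, 37.4 ± 0.566 FPKM with asparaginase, 76.1 ± 3.72 FPKM with ibrutinib and 66.4 ± 4.66 FPKM in untreated cells (difference 0.61, adjusted p = 0.0125). Unlike IGLL1, it was no higher with both drugs than in untreated cells. CCNA1, a cyclin, averaged 0.864 FPKM with both drugs, 1.33 with asparaginase, 1.13 with ibrutinib and 4.34 in untreated cells, so ibrutinib changed it by -0.32 with asparaginase and by -1.33 without it (difference 1.02).

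Some genes of the amino acid response had negative differences that passed, against 0.775% of all tested genes. ASNS (-0.46, adjusted p = 0.159 in limma), ATF4 (-0.16, 0.318) and DDIT3 (-0.34, 0.303) did not pass. With ibrutinib alone 3 of 18 ATF4 list genes fell and 5 rose, and 10 of 19 amino acid synthesis genes fell and 2 rose. Of 16 transporters 7 fell and 4 rose, and of 20 tRNA synthetases 17 fell and 1 rose. Of the ATF4 list 8 genes had a more negative change with asparaginase than without it and none a more positive one, and the same held for 7 amino acid synthesis genes, 9 transporters and 4 tRNA synthetases. CHAC1 averaged 14.1 ± 1.96 FPKM with both drugs, 24.0 ± 1.79 FPKM with asparaginase, 2.05 ± 0.245 FPKM with ibrutinib and 1.65 ± 0.311 FPKM in untreated cells (difference -0.94 ± 0.15, adjusted p = 0.0161). SLC6A9, a glycine transporter, averaged 4.83 FPKM with both drugs, 7.57 with asparaginase, 1.09 with ibrutinib and 0.549 in untreated cells (difference -0.99), and SLC7A11 6.04 FPKM with both drugs, 8.06 with asparaginase, 1.52 with ibrutinib and 0.717 in untreated cells (-0.92). Both therefore fell on adding ibrutinib to asparaginase and rose with ibrutinib alone, by 0.43 and 0.55. SESN2 (-0.77), PSAT1 (-0.62) and WARS (-0.60) differed in the same direction, and these 3 together with CHAC1, SLC6A9 and SLC7A11 kept their calls under every alternative run. TRIB3 averaged 10.98 FPKM with both drugs, 24.4 with asparaginase, 1.82 with ibrutinib and 2.60 in untreated cells, and its difference of -0.73 (adjusted p = 0.0488) passed in 6 of 22 alternatives. Over all alternatives the counts were 6 to 11 for the ATF4 list, 3 to 9 for synthesis, 4 to 11 for transporters and 3 to 11 for synthetases, with none positive. For synthesis the count was 4 without untreated replicate 1, ibrutinib replicate 2 or asparaginase replicate 1 and 3 without ibrutinib replicate 3, asparaginase replicates 2 or 3 or any combination replicate. For transporters it was 5 without untreated replicate 3, ibrutinib replicate 1, asparaginase replicate 3 or combination replicate 1, and 4 without ibrutinib replicate 3, asparaginase replicates 1 or 2 or combination replicate 3.

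Cholesterol genes had differences of the opposite sign. Of 24, 12 had a more positive change with asparaginase than without it and none a more negative one, 8 to 15 over the alternatives. With ibrutinib alone 14 of the 24 fell and 3 rose, whereas 1 fell and 13 rose when it was added to asparaginase. INSIG1 (difference 0.48), IDI1 (0.45) and FDFT1 (0.40) kept their calls under every alternative run, as did TKT (0.52) and HSPB1 (0.57) outside the list.

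**Figure D4:**
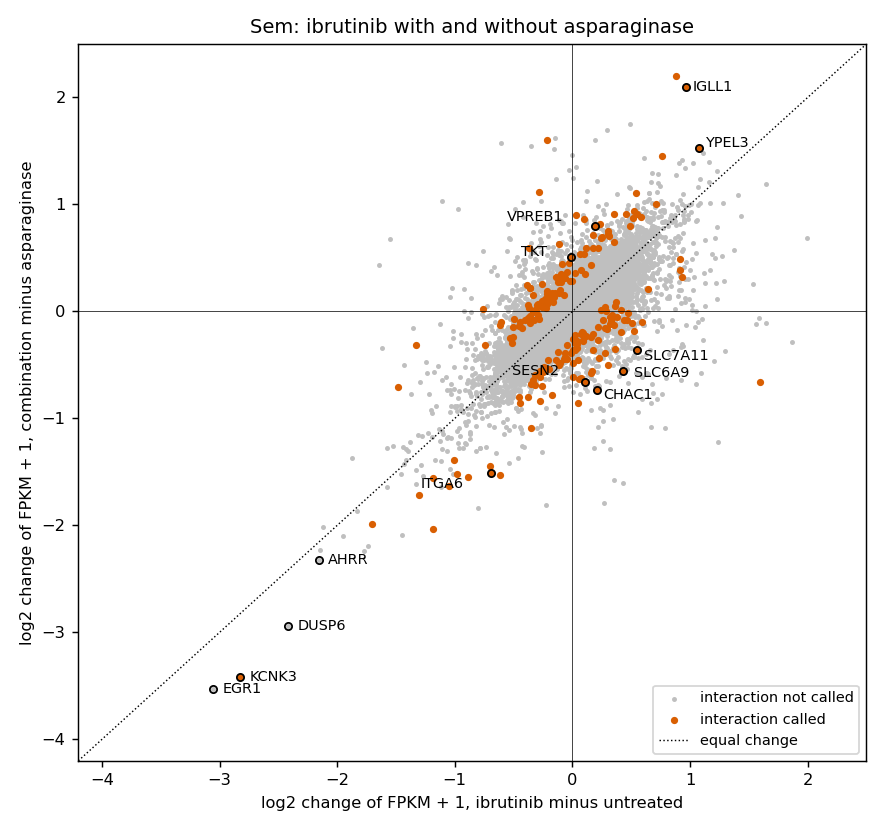
Each point is 1 of 13417 genes, with the log2 change for ibrutinib alone against untreated Sem cells on the x axis and that for ibrutinib added to asparaginase on the y axis; the line marks equal changes and orange points the 206 genes whose changes differed at an adjusted p under 0.05. Most genes lie along the line, with IGLL1 above it and SLC6A9, CHAC1, SLC7A11 and SESN2 below it.

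The same addition in Nalm6 cells changed 3671 of 15116 genes tested over both lines (24.3%; 1681 higher, 11.1%, and 1990 lower, 13.2%). Of the 5140 genes called in Sem, 1790 were called in the same direction in Nalm6, 34.8% of the Sem calls and 48.8% of the Nalm6 calls, and 277 in the opposite direction. The change itself differed between the lines, Sem minus Nalm6, in 2379 genes (15.7%; 8.07% with a higher and 7.67% with a lower change in Sem). EGR1 averaged 4.02 ± 0.452 FPKM in Nalm6 cells with both drugs and 1.997 ± 0.171 FPKM in those with asparaginase, a rise of 0.74, so the difference between the lines was -4.27 ± 0.28. DUSP6 was 39.0 ± 1.76 FPKM with both drugs and 21.1 ± 0.563 FPKM with asparaginase in Nalm6 (0.85; difference -3.79 ± 0.10), and TNF rose by 0.94 there (difference -2.81). The ERK list as a whole had 4 higher and 4 lower of 19 in Nalm6, and 14 of its members had a more negative change in Sem. These include SPRY4, which was near 0 in both Nalm6 groups (0.172 FPKM with both drugs and 0.178 FPKM with asparaginase). IGLL1 went the other way, at 248 ± 24.5 FPKM with both drugs and 371 ± 18.2 FPKM with asparaginase in Nalm6 (-0.59; difference 2.68 ± 0.09), and FCRLA also fell there (-0.57; difference 1.56).

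Other lists differed in the same way. MHC class II genes fell in 8 of 10 in Sem and rose in 3 of 10 in Nalm6, and 9 differed between the lines. Of the heat shock list 12 of 15 fell in Sem and 8 of 15 rose in Nalm6, 11 with a difference. HSPA5 of the endoplasmic reticulum list fell by 0.30 in Sem and rose by 0.55 in Nalm6, and 14 members of that list had a more negative change in Sem. Mitotic genes fell in 12 of 30 in Sem and rose in 12 of 30 in Nalm6, 13 with a difference. The MYC list fell in both lines, in 30 of 33 in Sem and in 31 of 33 in Nalm6, although MYC itself rose by 0.11 in Sem and fell by 0.62 in Nalm6. Between the lines 5 of the 33 members differed, about the share among all tested genes (15.7%). FOXO genes rose in 13 of 18 in Sem and in 12 of 19 in Nalm6: KLHL24 rose by 1.21 in Sem and 0.94 in Nalm6, YPEL3 by 1.53 in Sem and 0.92 in Nalm6, and TP53INP1 by 1.099 in Sem and 1.46 in Nalm6. Of the amino acid synthesis list 17 of 19 fell in Sem and 16 of 19 in Nalm6.

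**Figure D5:**
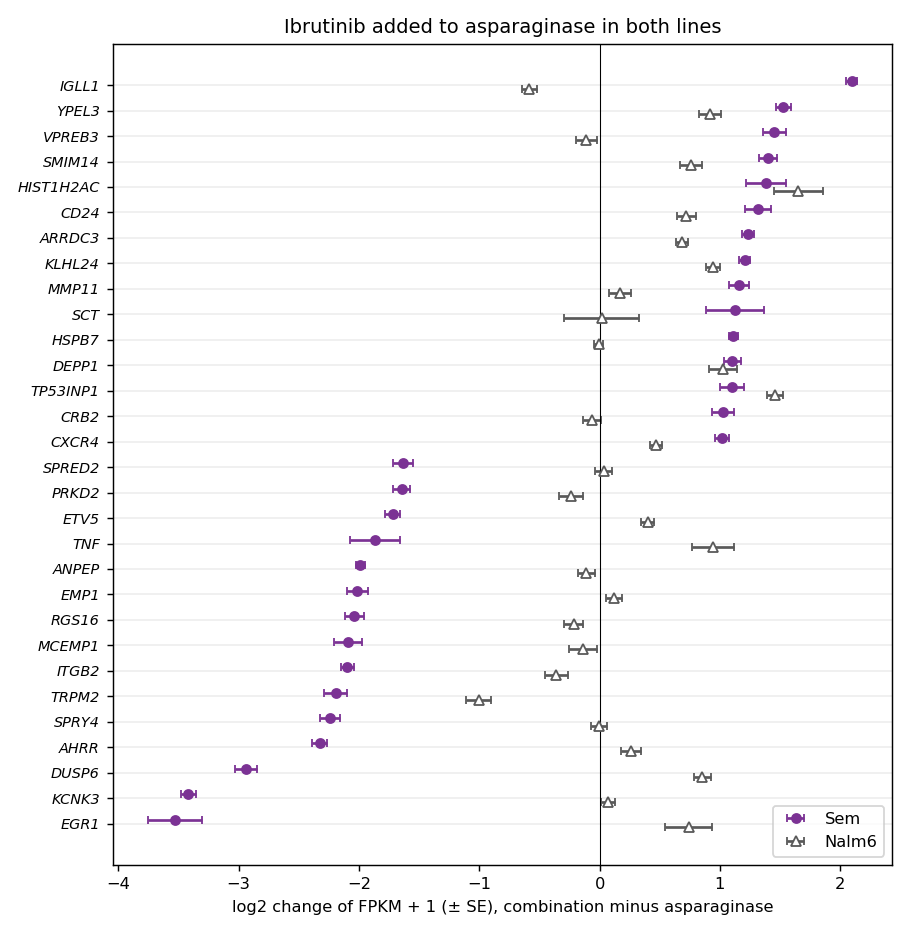
Log2 change on adding ibrutinib to asparaginase, with standard error, for the 15 genes that fell most and the 15 that rose most in Sem, in Sem and in Nalm6 cells. EGR1, DUSP6 and TNF fell in Sem and rose in Nalm6, IGLL1 rose in Sem and fell in Nalm6, and YPEL3, KLHL24 and HIST1H2AC rose in both.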

How the data were processed

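Bulk RNA-seq of 12 Sem and 12 Nalm6 libraries was deposited as 1 table of FPKM values per gene. Per the submitters' processing notes, reads were handled with fastp, STAR and featureCounts on GRCh38 (hg38); versions, strand setting and library kit settings are not given in the sources used here. In the deposited table values of 1 or more had lost their decimal point (150902 of 704820 Sem values, 21.41%), so the column is classed as other than a plain FPKM, and the planned log2(FPKM + 1) test was run on restored values. Intact values times gene length are whole multiples of 1 step per library. The step gave whole reads, and the decimal place of each damaged value was chosen jointly over replicates and treatments with a Student t model; 282 values (151 of the 13417 genes tested in Sem) had a posterior under 0.99. The settings of this step were changed once on simulated damage before any comparison was tested. In simulated damage 99.958% of values were restored, none wrongly at a posterior of 0.99 or more. Of 40 simulated 8-fold changes each, 5 were restored wrongly for the combination group alone and 6 for the asparaginase group alone. The simulation started from the restored levels, so it could not show whether a whole group of a gene in the real data sat at a wrong decimal place. A decimal place set too high turns a count into a multiple of 10. Among genes with 3 restored counts of 100 or more, all 3 were such multiples in 19 asparaginase and 16 combination genes of Sem. By chance 10.0 and 10.1 were expected, and the untreated and ibrutinib groups had 11 and 10. Whether these genes sit at a wrong decimal place was not tested.

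Genes with at least 1 FPKM in at least 3 libraries were tested with limma 3.58.1 in R 4.3.3 (trended empirical Bayes, group means, Benjamini-Hochberg adjustment, adjusted p under 0.05), over the 12 Sem libraries with 8 residual degrees of freedom or over all 24 with 16. On simulated data the fit found 63.3% of the altered genes at 1.25-fold, 70.8% at 1.5-fold, 85.7% at 2-fold and 93.6% at 4-fold. Deviations of same-numbered combination and asparaginase libraries correlated at -0.028, 0.02 and 0.086, and those of differently numbered ones at -0.109 to 0.09. With so few libraries this cannot show whether they were handled in pairs, and the labels state no pairing. Gene identity and GC content came from GENCODE 29 (58724 of 58735 genes matched in start and end) and promoters from RefSeq. Named genes were 7 set ones, the 15 largest rises and 15 deepest falls among protein-coding genes with a posterior of at least 0.99, groups that do not overlap and a mean of at least 2 FPKM in the higher group, up to 4 called members of each list with the lowest p plus called members against the majority, and 5 genes in each direction for each difference. Further list members given with values were added after their values were seen. Members, lists and rules were chosen with earlier results of these data known. Alternatives were another pseudocount, filters, TPM, quantile, GC and length scaling, limma-voom on recovered reads, a replicate block, other fits and leaving out each library. Results for 2 members of the lists are not reported here.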

Additional observations from a re-analysis of the deposited data

Results flagged for a closer look

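These results were marked because a tested difference between effects passed an adjusted p under 0.05 in limma. The first set compares, within Sem, the log2 change with ibrutinib when asparaginase was present with that when it was absent. The change was more negative with asparaginase for TRIB3 (-0.73), CHAC1 (-0.94), the glycine transporter SLC6A9 (-0.99), the cystine transporter SLC7A11 (-0.92), the netrin receptor UNC5B (-0.92), RGS16 (-0.86), KCNK3 (-0.59), ETV5 (-0.41) and ANPEP (-0.29). It was more positive for IGLL1 (1.13), VPREB3 (0.69), YPEL3 (0.45), the small heat shock protein gene HSPB7 (0.57), the cyclin CCNA1 (1.02), the fucosyltransferase FUT7 (0.78) and the matrix protein gene DPT (0.76). Of these 16, IGLL1, CHAC1, RGS16, HSPB7, SLC6A9, SLC7A11 and CCNA1 kept the call under every alternative run, and the other 9 lost it under at least 1. UNC5B averaged 2.81 FPKM with both drugs, 10.0 with asparaginase, 0.625 with ibrutinib and 1.48 in untreated cells. DPT averaged 10.9 FPKM with both drugs, 5.56 with asparaginase, 9.63 with ibrutinib and 8.90 in untreated cells, so it was low in the asparaginase group.

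The second set compares the log2 change on adding ibrutinib to asparaginase in Sem with that in Nalm6. Sem minus Nalm6 was -4.27 for EGR1, -3.79 for DUSP6, -3.49 for KCNK3, -2.81 for TNF and -2.59 for AHRR. KCNK3 averaged 0.0655 FPKM with both drugs and 0.0151 FPKM with asparaginase in Nalm6, so it was near 0 in both groups of that line. The difference was 2.68 for IGLL1, 1.67 for AC119396.1, 1.59 for the stem cell receptor gene LGR6, 1.56 for FCRLA and 1.56 for VPREB3. LGR6 averaged 11.6 FPKM with both drugs and 7.74 FPKM with asparaginase in Sem, and 0.869 FPKM with both drugs and 2.90 FPKM with asparaginase in Nalm6. Of the 37 genes named for the main comparison 30 differed between the lines, against 15.7% of all tested genes, and 10 differed between the presence and absence of asparaginase, against 1.54%. Most of the 37 were chosen for large changes in Sem, so nothing is read from these counts.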

How the results depend on the processing

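The main count of 5140 genes stayed within 1.5 times under every alternative run, from 3971 with a minimum of 5 FPKM to 5529 with limma-voom on recovered reads, and lay between 4269 and 4476 when 1 library was left out (1974 to 2148 higher, 2168 to 2382 lower). A limma fit with the replicate number as a block gave 5286 genes. With the block CD22, E2F2 and PFKFB4 did not pass (adjusted p = 0.0585, 0.0564 and 0.0611) and ATF4 did (0.0309). The labels link the libraries only by that number. The count of differences by presence of asparaginase moved most: 136 genes with no filter on low values, 438 with TPM scaling, 536 with limma-voom and 73 to 374 with 1 library left out, against 206; the cause was not tested. The differences between lines counted 1985 to 2408 with 1 library left out, against 2379.

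Of 198 genes followed in the main comparison 174 kept their side of the threshold under all alternatives, as did 32 of 37 between the lines. For the difference by presence of asparaginase, 24 of 41 genes did. The Sem minus Nalm6 difference of TP53INP1 was -0.36 and turned to 0.29 with a pseudocount of 0.1 and 0.43 with limma-voom, where it did not pass (adjusted p = 0.246 and 0.104). In the main comparison HSPB1 did not pass in the fit of all 24 libraries. Among lists, interferon genes had 4 higher with a minimum of 5 FPKM, BCL2 family genes 5 higher after quantile normalization, and mitochondrially encoded messenger RNAs 5 lower after quantile normalization and 4 lower with limma-voom. The medians of the fatty acid, KMT2A and mitochondrial messenger RNA lists lay near 0 and changed sign under at least 1 alternative. The median change of all tested genes moved by less than 0.1 under each alternative. With 3 libraries a group and recovered whole reads as the resolution, genes at 1 FPKM in fewer than 3 of the 12 Sem libraries were left out of the main test. Some tested genes, such as HIST1H2BJ, were under 1 FPKM in all 6 libraries compared. The alternative with no filter on low values tested 28987 genes.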

Other observations

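Gene families outside the lists above were picked after their values had been seen, so their counts are descriptions. Proteasome genes fell in 29 of 44 tested and rose in none (median -0.19, against 0.0093 over all tested genes): the activator subunit PSME2 averaged 29.2 FPKM with both drugs and 43.6 FPKM with asparaginase (-0.57), and PSMD1, of the regulatory particle, averaged 17.4 FPKM with both drugs and 23.2 FPKM with asparaginase (-0.39). With ibrutinib alone 34 proteasome genes fell in Sem and 0 rose. In Nalm6 6 proteasome genes fell and 4 rose on the addition. That is about as often as among all genes tested there, of which 13.2% fell and 11.1% rose. Genes of mitochondrial ribosomal proteins fell in 41 of 77 and rose in 2 (median -0.19), with MRPL4 at 13.5 FPKM with both drugs and 21.2 FPKM with asparaginase (-0.62). Of 8 subunits of the cytosolic chaperonin, which folds actin and tubulin, 7 fell and none rose (median -0.31), for example CCT6A at 77.5 FPKM with both drugs and 109 FPKM with asparaginase (-0.49).

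Of 90 clustered histone genes 16 could be tested, of which 9 rose and 1 fell (median 0.40). Histone messenger RNA is mostly not polyadenylated, copies share reads, and the restored level of HIST1H1C had a posterior under 0.99. Genes of the aryl hydrocarbon receptor, which senses foreign compounds, moved in different directions. CYP1A1, its classical target, was at 0, 0 and 0.0377 FPKM with both drugs and at 1.26, 1.02 and 1.153 FPKM with asparaginase (-1.08). It could be tested only through the asparaginase libraries, the group where it was high, so its call is no further evidence. AHRR fell too. NQO1, which NRF2 also induces, rose by 1.01, the dimerization partner ARNT rose by 0.23, and TIPARP did not pass (-0.01).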
